A study of Mus musculus with 40 samples.

Results

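The genes examined were those of the cytosolic ribosome and of the factors that run translation on it, in 2 hind limb muscles of the mouse. They were chosen by symbol: the numbered proteins of the large (*Rpl*) and small (*Rps*) ribosomal subunits, *Rplp* and *Rpsa* genes, initiation factors (*Eif1* to *Eif6*) and elongation factors (*Eef1* and *Eef2*). Of 16475 genes with a probe set, 84 matched, 25 of them ribosomal proteins and 59 translation factors, and 69 of the 84 (18 ribosomal proteins and 51 factors) had a mean signal intensity over 20 and were tested among 6479 genes. The 40 arrays came from the gastrocnemius (G) and the quadriceps (Q) of the same 20 male mice, 20 weeks old, labelled as strain C56BL/6J (C57BL/6J in the study's methods) with no genetic change named, and fasted for 6 h before the muscles were taken. After a run-in of 3 weeks on the low-fat diet, 10 mice stayed on it (LFD, 10% of energy as fat) and 10 received a high-fat diet (HFD, 45%) for 8 weeks, so each muscle and diet had 10 arrays. RNA of whole muscle was hybridized, so fewer cells of a type and less RNA per cell cannot be told apart. The extraction text of the labels names the quadriceps for every array, including those labelled as gastrocnemius.

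Translation starts when the small subunit, loaded with an initiator tRNA by eIF2, is brought to the cap of an mRNA by the eIF4 factors and held there by eIF3. The large subunit then joins, and the elongation factors eEF1A and eEF2 deliver each aminoacyl-tRNA and move the ribosome along. In muscle, protein synthesis is tuned by mTORC1, a kinase complex that phosphorylates the 4E-BP proteins (*Eif4ebp1* to *Eif4ebp3*) and so frees the cap-binding protein eIF4E. Many mRNAs of ribosomal proteins and elongation factors begin with a run of pyrimidines, the 5′ terminal oligopyrimidine tract, through which mTORC1 sets their translation together. Some members have muscle forms, such as *Rpl3l* and *Eef1a2*, which take the place of *Rpl3* and *Eef1a1* in mature fibers.

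The start sites of several members are shown because this tract is the sequence that ribosomal protein genes are known to share. Each line gives 30 bases from the RefSeq promoter set for GRCm38.p6, 15 before the annotated start and 15 from it on, on the transcribed strand, and capitals mark a run of 8 or more C or T bases that reaches within 5 bases of the start.
*Rpl13a* (chr7:45128731-45128760, minus strand): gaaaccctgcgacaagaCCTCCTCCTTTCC
*Rpl14* (chr9:120571502-120571531, plus strand): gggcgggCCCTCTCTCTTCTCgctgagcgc
*Rps6* (chr4:86857353-86857382, minus strand): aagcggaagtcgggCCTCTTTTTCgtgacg
*Rps3* (chr7:99483695-99483724, minus strand): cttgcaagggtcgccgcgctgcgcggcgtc
*Eif3f* (chr7:108934400-108934429, plus strand): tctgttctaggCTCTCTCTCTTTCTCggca
*Eif2s2* (chr2:154892892-154892921, minus strand): cacgtaaggttggctttactgtacgcctgc
*Eif4a1* (chr11:69672409-69672438, minus strand): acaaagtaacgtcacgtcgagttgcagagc
Such a run stood at the start of 9 of the 19 ribosomal protein genes with an entry (47.4%) and of 9 of the 47 factor genes (19.1%). Over all 27025 genes with a promoter entry the share was 11.4%. On the other strand, where the run reads as A or G bases, the counts were 2 and 4, against 12.6% of all genes. The elongation factor genes *Eef1a2* and *Eef2* had no such run. A gene counted if any of its annotated starts had a run, and for *Rps27l*, *Eif4e*, *Eif4enif1* and *Eif2ak4* other starts had none. Only annotated starts were read, so a gene without a run here may still have the tract. *Rps14*, *Rpl8*, *Eif4ebp1* and *Eef1akmt1*, which appear below, had no entry. The muscle differences of members with and without a run overlapped: in LFD mice the 8 tested ribosomal proteins with a run had log2 fold changes from -0.02 to 0.19 (median 0.06), and the 6 without had 0.02 to 0.14 (median 0.09).

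Before any comparison, 2 features of the arrays had to be set out. The deviations from group means of the 6410 tested genes that are no members placed 11 arrays apart from the other 29 (gap of 11.6 on the main component, against at most 1.8 between other neighbours). They were 3 LFD Q, 2 LFD G, 3 HFD Q and 3 HFD G arrays, and no label names this division. Their 3′ to 5′ signal ratio for actin was 1.2 to 1.36, against 1.34 to 1.5 in the others. In addition, *S100a8*, a neutrophil gene, read 342.6 to 4031.3 in 10 quadriceps arrays (4 LFD and 6 HFD) and 5.1 to 11.9 in all others. The 11 skeletal muscle markers all had mean signals over 20 in every group.

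Between the muscles, the ribosomal proteins and factors differed little. In LFD mice 3 of the 69 members passed the FDR of 0.05, all higher in the gastrocnemius, which is 4.35% of members beside 5.22% of all genes tested (2.69% were called higher and 2.53% lower). None passed with a fold change over 1.3, a threshold met by 2.52% of genes. In HFD mice 3 members were higher and 1 lower, 5.80% of members beside 6.62% of all genes (3.32% higher and 3.3% lower), and again none exceeded 1.3-fold, which 3.46% of genes did. The shares of members called were thus near those of all genes. Few members were left undecided: the 95% confidence interval of the difference lay within 1.3-fold in either direction for 17 of 18 ribosomal proteins and 46 of 51 factors in LFD mice, and for 16 and 47 in HFD mice.

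*Rps14* (Entrez 20044), a protein of the small subunit close to the mRNA channel, was the ribosomal protein called in both diets. Its signal intensity in LFD mice ran from 4106.9 to 4908.2 in the gastrocnemius (median 4548.5) and from 3616.3 to 4544.6 in the quadriceps (median 4035.9). In HFD mice it ran from 4004.6 to 5249.4 (median 4381.9) and from 3480.4 to 4259.5 (median 3880.6). The groups overlapped, yet 5 of 10 LFD and 7 of 10 HFD gastrocnemius arrays lay above every quadriceps array of that diet. The log2 fold change was 0.16 ± 0.05 (SE; limma adjusted p = 0.0437), with G above Q in 8 of 10 mice, and 0.18 ± 0.05 (adjusted p = 0.0393), with G above Q in 10 of 10. With each mouse as a fixed block the limma adjusted p values were 0.0501 and 0.111, and as a random block 0.0091 and 0.0397.

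The other proteins of the large and small subunits stood just short of the threshold or well below it. *Rpl13a* (Entrez 22121) ran from 278.3 to 398.3 in LFD gastrocnemius (median 306.2) and from 252.0 to 309.2 in LFD quadriceps (median 273.95), with a log2 fold change of 0.19 ± 0.06 (limma adjusted p = 0.0571). Its difference in HFD mice was 0.08. *Rpl8* (Entrez 26961), a core protein near the peptidyl transferase center, was at 2905.4 to 3342.9 (median 3113.7) in LFD G and 2508.4 to 3207.9 (median 2856.5) in LFD Q, and G was the higher in 10 of 10 LFD mice and 7 of 10 HFD mice. Its log2 fold changes were 0.14 and 0.13 (limma adjusted p = 0.0889 and 0.0905). With the mouse as a fixed block *Rpl8* passed in LFD mice (adjusted p = 0.0378). At an unadjusted p under 0.05 limma gave 7 ribosomal proteins in LFD mice, all higher, and 5 in HFD mice, 4 of them higher, while 19.0% and 18.7% of all genes passed that mark. *Rpl14* had 0.14 and 0.13, and *Rps3*, which lines the mRNA entry, 0.12 and 0.09. Neither passed the FDR. With the mouse as a random block *Rpl13a*, *Rpl8*, *Rps3* and *Rpl14* passed in LFD mice (limma adjusted p = 0.0134, 0.0141, 0.0297 and 0.0492), and the members called there numbered 10, among 917 genes (14.2%), while in HFD mice none of the 4 passed.

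In direction the ribosomal proteins leaned one way. In LFD mice 17 of 18 had a log2 fold change above 0, with a median of 0.08 and a range of -0.02 to 0.19, whereas 45.7% of all tested genes were above 0 and their median was -0.01. In HFD mice 15 of 18 were above 0 (median 0.08, range -0.13 to 0.26), beside 43.9% of all genes (median -0.02). The comparisons in LFD and HFD mice share no array, and 15 of the 18 were higher in G in both. The exceptions were *Rpl15*, with 0.02 and -0.02, and the paralogs *Rpl3l* and *Rps27l*. *Rpl3l*, the striated muscle form of a large subunit protein, had 0.02 and -0.03. *Rps27l*, a paralog of *Rps27*, had -0.02 in LFD mice and -0.13 in HFD mice, where it lay lower in 7 of 10 mice (limma adjusted p = 0.108).

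**Figure D1:**
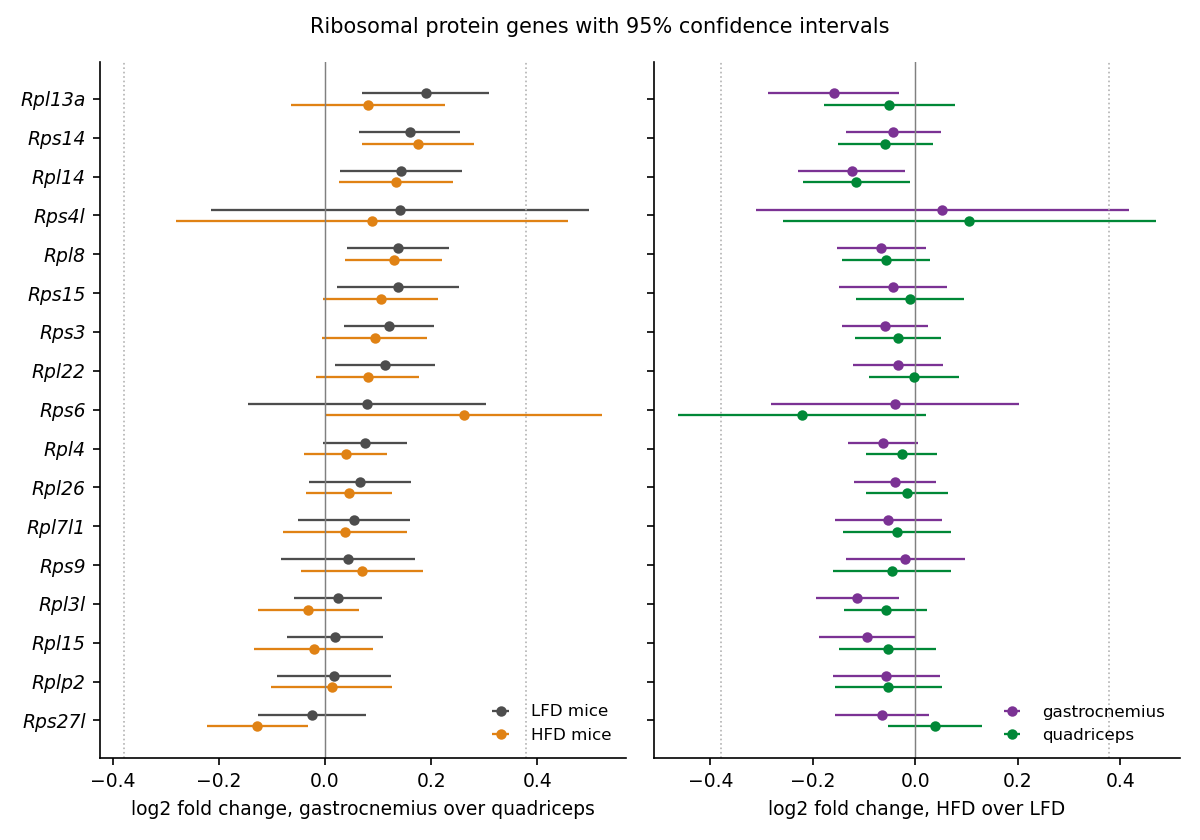
Log2 fold change of 17 of the tested ribosomal protein genes between the muscles (left, LFD and HFD mice) and between the diets (right, in each muscle), with 95% confidence intervals from limma (10 arrays a group) and dotted lines at 1.3-fold. Most points in the left panel lie above 0 and most in the right panel under it, and the intervals of *Rps4l* and *Rps6* are the widest.

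Averaged over the 18 genes, the mean log2 signal intensity of an LFD mouse was 9.97 ± 0.045 (SD, n = 10) in the gastrocnemius and 9.88 ± 0.059 in the quadriceps. In HFD mice it was 9.91 ± 0.047 and 9.84 ± 0.037. The gastrocnemius was higher in 8 of 10 LFD mice, all but mice 141 and 142, and in 10 of 10 HFD mice, by 0.087 ± 0.082 and 0.069 ± 0.049 (SD over mice). The mean of the 51 factors was higher in 8 of 10 mice of either diet, by 0.035 ± 0.045 and 0.028 ± 0.030. The mean over all tested genes moved by -0.010 ± 0.021 and -0.015 ± 0.034. The difference of the ribosomal proteins exceeded that of the factors in 7 of 10 LFD and 6 of 10 HFD mice. The gap was 0.051 ± 0.061 and 0.040 ± 0.058, smaller than its SD over mice. That SD is not the error of the mean, and whether the classes differ was not tested.

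**Figure D2:**
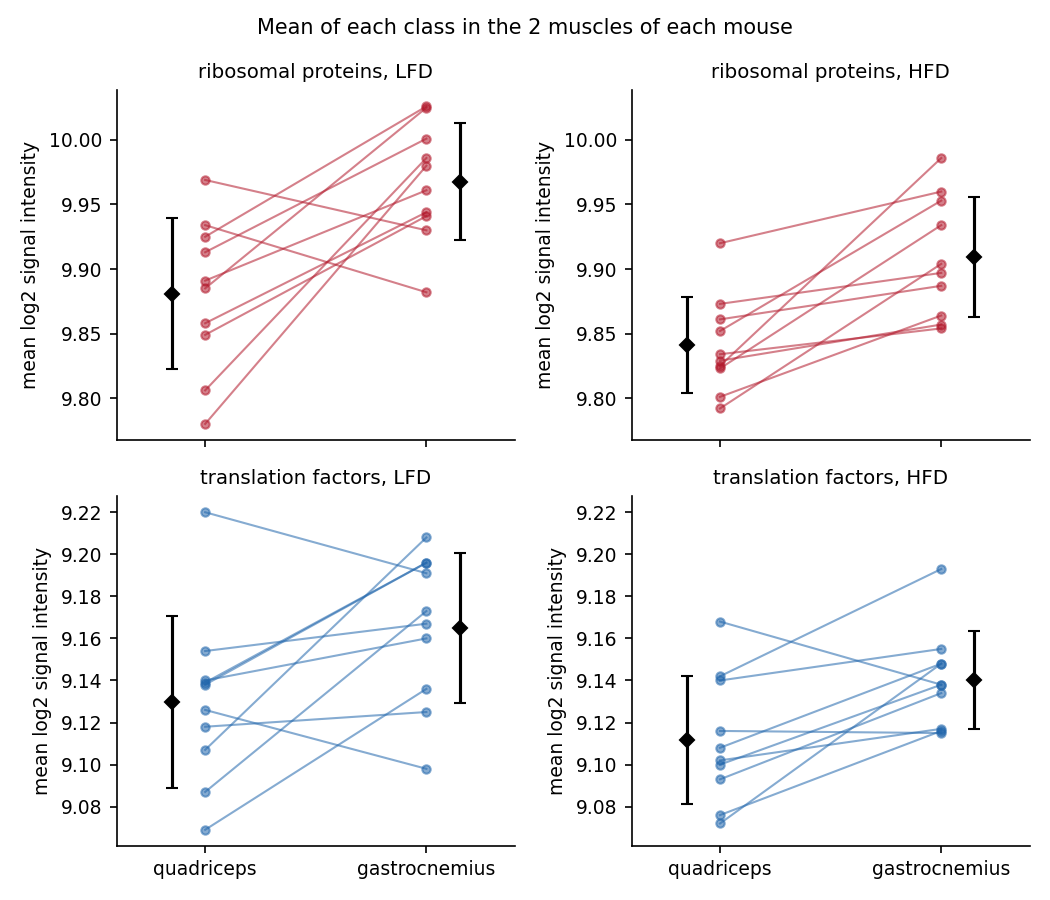
Mean log2 signal intensity of the 18 ribosomal proteins (upper row) and 51 translation factors (lower row) in the quadriceps and gastrocnemius of each mouse, a line per mouse, with the group mean and SD in black (n = 10 a group); the vertical axes do not start at 0. Lines of the ribosomal proteins rise toward the gastrocnemius in 8 LFD and 10 HFD mice, and those of the factors in 8 and 8.

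Among the initiation factors the call shared by both diets was *Eif4ebp1* (Entrez 13685), which encodes 4E-BP1, the repressor that holds eIF4E away from the eIF4 complex. It read 613.5 to 773.0 in LFD gastrocnemius (median 666.3) and 518.7 to 724.1 in LFD quadriceps (median 583.2). In HFD mice it read 557.8 to 690.2 (median 622.75) and 462.5 to 647.6 (median 551.15). The groups overlapped, but G was above Q in 10 of 10 LFD and 9 of 10 HFD mice. The log2 fold changes were 0.20 ± 0.05 and 0.19 ± 0.06 (limma adjusted p = 0.0378 and 0.0427), and with the mouse as a fixed block it passed in both diets (adjusted p = 0.0143 and 0.0403). Of the other eIF4E inhibitors, *Eif4ebp3* had log2 fold changes of 0.08 (95% interval -0.12 to 0.27) and 0.06 (-0.10 to 0.22), and *Eif4ebp2* had -0.03 (-0.46 to 0.40) and 0.47 (-0.16 to 1.1). Neither was called, and these intervals hold the value of *Eif4ebp1*, so a difference between the inhibitors was not shown.

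The eIF4 factors, which find the cap and unwind the leader, were spread around 0. Over the 10 members of this group the median log2 fold change was -0.01 in either diet. *Eif4a1*, the RNA helicase of the complex, ran from 443.5 to 918.5 in LFD gastrocnemius (median 709.2) and from 428.7 to 714.3 in LFD quadriceps (median 593.65), wide groups with a log2 fold change of 0.26 ± 0.11 (limma adjusted p = 0.175). G was the higher in 8 of 10 mice, and with the mouse as a fixed block the adjusted p was 0.0151. In HFD mice the difference was 0.07. *Eif4h*, a helper of that helicase and the least variable member of all, was lower in the gastrocnemius of 10 of 10 HFD mice by a log2 fold change of only -0.08 ± 0.03 (limma adjusted p = 0.151). *Eif4e* itself had -0.04 and -0.07.

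*Eif2s2* (Entrez 67204), the beta subunit of the tRNA carrier eIF2, was the member called lower in the gastrocnemius, and in HFD mice alone. It ran from 607.0 to 681.8 in HFD gastrocnemius (median 629.05) and from 648.8 to 754.3 in HFD quadriceps (median 705.45), with 8 of 10 G arrays below every Q array. The log2 fold change was -0.14 ± 0.04 (limma adjusted p = 0.0379), lower in 9 of 10 mice. In LFD mice the same gene had -0.05, and the difference between the diets was -0.08 with a 95% interval of -0.20 to 0.03, so it was not shown to depend on diet. With the mouse as a fixed block the HFD limma adjusted p was 0.106, and as a random block 0.03825. The subunits of eIF3, the scaffold of the small subunit, had medians of 0.06 and 0.05 over 11 genes, and those of eIF2B, the exchange factor that recharges eIF2, 0.04 and 0.01 over 5. *Eif3h* was higher in G in 10 of 10 HFD mice, but by 0.09 (limma adjusted p = 0.185).

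Of the elongation genes, *Eef1akmt1* (Entrez 68043), a methyltransferase that modifies a lysine of eEF1A, was higher in the gastrocnemius in both diets. It ran from 254.0 to 350.9 in LFD gastrocnemius (median 316.95) and from 252.5 to 303.2 in LFD quadriceps (median 273.75), and 8 of 10 G arrays lay above every Q array. In HFD mice the ranges were 261.6 to 337.1 (median 299.4) and 225.3 to 289.5 (median 259.65). The log2 fold changes were 0.20 ± 0.05 and 0.18 ± 0.05 (limma adjusted p = 0.0377 and 0.04995), each with G above Q in 9 of 10 mice, so the HFD call lay at the threshold itself. With the mouse as a fixed block the adjusted p values were 0.0175 and 0.0848. The factors that the enzyme and its relatives act on moved less: *Eef1a2*, the muscle form of eEF1A, had 0.06 and 0.03, and *Eef2* had 0.12 and 0.05. *Eef2k*, the kinase that switches eEF2 off, had 0.22 and 0.17 with wide errors (limma adjusted p = 0.181 and 0.412).

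**Figure D3:**
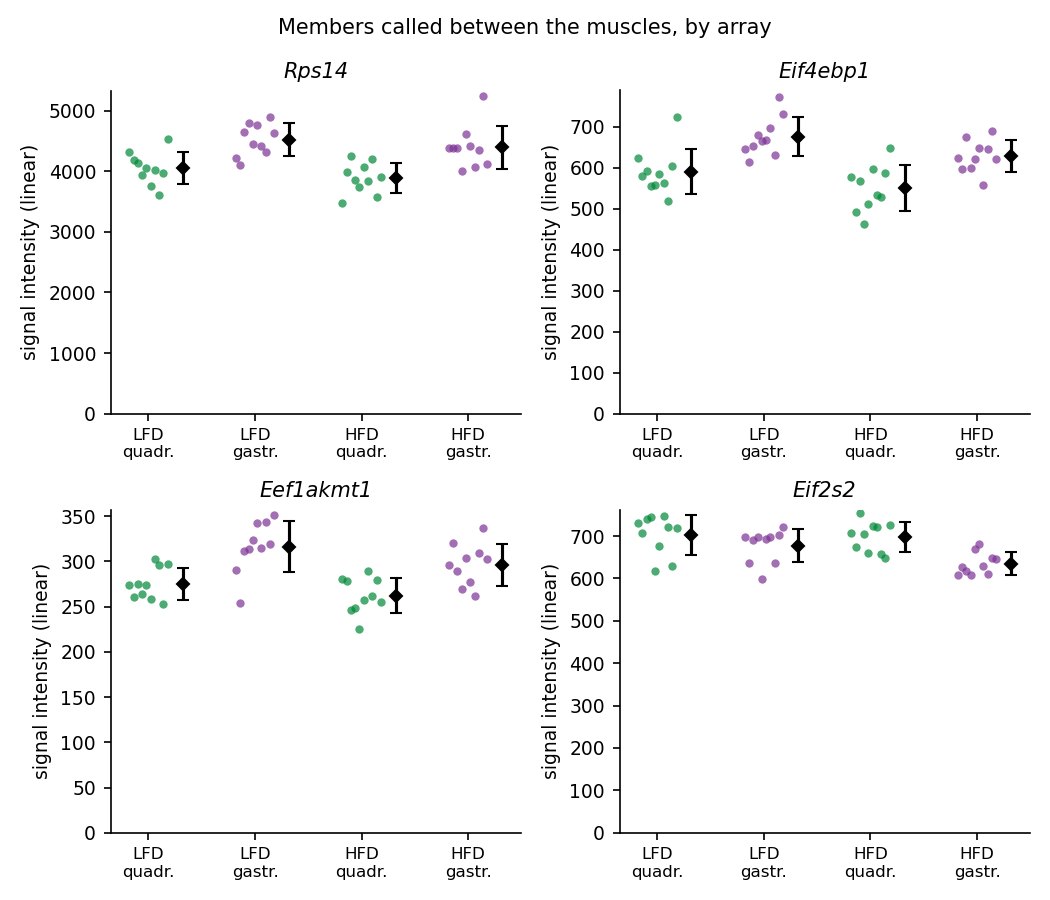
Signal intensity (linear scale, from 0) of the 4 members called between the muscles in either diet, a point per array, with mean and SD beside each group of 10. *Rps14*, *Eif4ebp1* and *Eef1akmt1* sit higher in the gastrocnemius of both diets and *Eif2s2* lower, with overlap in every pair of groups.

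The 3 members called in LFD mice were all among the 4 called in HFD mice. Of all the genes called 228 were shared, 67.5% of the LFD and 53.1% of the HFD calls. Too few members were called to set their share against these. Across the 69 members the log2 fold changes of the 2 diets had the same sign for 54 (78.3%, beside 73.3% of all tested genes). Pearson's r across genes, which are not independent, was 0.69 over ribosomal proteins, 0.36 over factors and 0.86 over all tested genes.

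**Figure D4:**
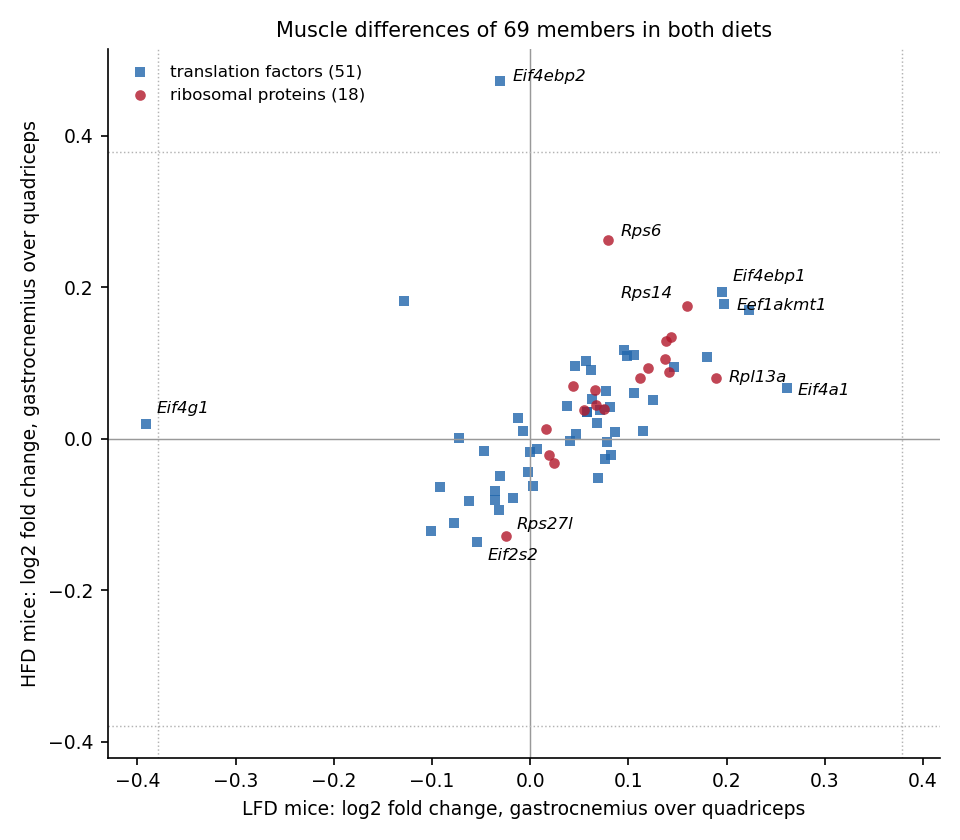
Log2 fold change of gastrocnemius over quadriceps in LFD mice (horizontal) against HFD mice (vertical) for the 69 tested members, with dotted lines at 1.3-fold. Ribosomal proteins (circles) gather in the upper right, inside the dotted lines, and of the factors (squares) *Eif4g1* and *Eif4ebp2* lie outside the dotted lines, without passing the FDR.

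Other cell types and fiber types moved with the muscles. Over 8 slow fiber markers on the array, 7 of them above a mean of 20, the summed signal was 6009 to 13610 in LFD G, 367.8 to 7982 in LFD Q, 7358 to 12600 in HFD G and 272.5 to 5637 in HFD Q. The summed signal of 9 neutrophil markers was 41.8 to 51.9 in every gastrocnemius array and reached 2654 in LFD Q and 13860 in HFD Q. Of 7 tested slow fiber markers 6 were called higher in G in each diet. Of 6 tested adipocyte markers, *Adipoq*, *Cidec* and *Retn* were lower in G in LFD mice (-0.74, -1.38 and -0.82 on the log2 scale, with limma adjusted p = 0.0199, 0.0085 and 0.0154) and *Retn* in HFD mice (-1.26, adjusted p = 0.0064). The summed adipocyte signal was 5699 to 7517 in LFD G, 6558 to 11180 in LFD Q, 5702 to 11380 in HFD G and 6992 to 11710 in HFD Q. Of 7 fibroblast and tendon markers, *Col3a1* was lower in G in both diets (-0.32 and -0.43) and *Scx* higher in HFD mice (0.52), and the red cell gene *Slc4a1* was lower in HFD mice (limma adjusted p = 0.0259). No tested macrophage (5) or endothelial (4) marker was called, and no B cell marker had a mean over 20. The part of these cell and fiber types in the member differences was not tested. Without the 10 quadriceps arrays that carried *S100a8* signal no member was called in either diet, while 225 and 276 genes still were (3.47% and 4.26%). The log2 fold changes without them were 0.18 and 0.21 for *Rps14*, 0.21 and 0.16 for *Eif4ebp1*, and 0.23 and 0.10 for *Eef1akmt1*. Those of *Rpl8* and *Rpl14* in LFD mice were 0.09 and 0.08. *Eif2s2* had -0.16 in HFD mice. Fewer arrays enter this fit (6 LFD and 4 HFD quadriceps arrays).

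The calls lay near the threshold and most single mice could end them. In LFD mice leaving out any of mice 147, 148, 153, 154, 156 and 159 ended the calls of *Rps14*, *Eif4ebp1* and *Eef1akmt1*, as did mouse 155 for *Rps14* and *Eif4ebp1* and mouse 160 for *Eef1akmt1*. The limma adjusted p then ranged up to 0.128 for *Rps14*, 0.0996 for *Eif4ebp1* and 0.111 for *Eef1akmt1*. In HFD mice leaving out mouse 143, 144, 150 or 152 ended all 4 calls, and mice 145, 146, 149, 151, 157 and 158 ended some of them, with limma adjusted p up to 0.103 for *Rps14*, 0.109 for *Eif4ebp1*, 0.114 for *Eef1akmt1* and 0.103 for *Eif2s2*.

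The diets were compared within each muscle, to ask whether fat intake altered the translation genes. No member passed the FDR in the gastrocnemius, where 44 genes did (0.679%, with 0.463% higher and 0.216% lower on HFD), or in the quadriceps, where 12 did (0.185%, with 0.139% higher and 0.0463% lower). Genes called at over 1.3-fold made up 0.216% and 0.0617%. At an unadjusted p under 0.05, limma gave 8 members in the gastrocnemius, 3 ribosomal proteins and 5 factors, all lower on HFD (11.6% of members, beside 8.97% of all genes), and 4 in the quadriceps (5.80%, beside 5.68%). The 95% interval lay within 1.3-fold for 17 of 18 ribosomal proteins and 48 of 51 factors in the gastrocnemius, and for 16 and 47 in the quadriceps. In simulated data with 200 changed genes, those made to differ by 1.3-fold were recovered in 80% of cases for the gastrocnemius and 82% for the quadriceps. The real comparisons held fewer calls, 44 and 12, and the FDR cutoff tightens as calls become fewer. Recovery in the real data may thus have been lower than those shares.

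The nearest to a call was *Eif3f* (Entrez 66085), a subunit of the initiation scaffold eIF3. It ran from 2346.2 to 2780.3 in LFD gastrocnemius (median 2613.2) and from 2172.0 to 2536.0 in HFD gastrocnemius (median 2369.3). All 10 HFD arrays were below the LFD median and 4 of 10 were below every LFD array. The log2 fold change was -0.13 ± 0.03 (limma adjusted p = 0.0547), and with the set of 11 arrays as a term it was -0.14 (adjusted p = 0.0246). Without those 11 arrays the limma adjusted p was 0.206, and without the quadriceps arrays with neutrophil signal 0.0998. The mouse as a random block gave a limma adjusted p of 0.0598. In the quadriceps the log2 fold change was -0.03. The difference between muscles of -0.10 had a 95% interval of -0.20 to -0.01 and a limma adjusted p of 0.9998. *Eif3k*, another eIF3 subunit, had -0.14 in the gastrocnemius (adjusted p = 0.171) and -0.02 in the quadriceps.

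The cap-binding gene *Eif4e* was lower on HFD in both muscles without passing the FDR. It ran from 149.8 to 185.5 in LFD gastrocnemius (median 163.45) and from 138.3 to 163.7 in HFD gastrocnemius (median 153.8), a log2 fold change of -0.13 ± 0.05 (limma adjusted p = 0.230), and had -0.10 in the quadriceps (adjusted p = 0.863). *Rpl3l* ran from 4932.0 to 5564.9 in LFD gastrocnemius (median 5295.8) and from 4446.7 to 5237.1 in HFD gastrocnemius (median 4904.3). All 10 HFD arrays were below the LFD median, and the log2 fold change was -0.11 ± 0.04 (limma adjusted p = 0.244). *Rpl14* had -0.12 in both muscles, with 7 of 10 HFD gastrocnemius arrays below every LFD array (limma adjusted p = 0.416). *Eif4ebp2* had the largest diet value of any member, -0.65 ± 0.27 in the quadriceps, with arrays from 36.8 to 267.3 on HFD and from 96.1 to 347.6 on LFD (limma adjusted p = 0.738).

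As a class, the ribosomal proteins lay slightly lower on HFD. In the gastrocnemius 17 of 18 had a log2 fold change below 0, with a median of -0.06 and a range of -0.16 to 0.05, beside a median of -0.02 over all tested genes, of which 42.8% were above 0. In the quadriceps 16 of 18 were below 0 (median -0.04), beside 44.5% of genes above 0 and a median of -0.01. The factors had medians of -0.03 and -0.01, with 33 and 31 of 51 below 0. The diet comparisons use 2 muscles of the same mice and are not independent of each other. The muscle comparisons share the gastrocnemius and quadriceps arrays with them.

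For the interaction of diet and muscle, no gene of the 6479 passed the FDR (0.0%), and at an unadjusted p under 0.05 limma gave 118 genes (1.82%) and 1 member, *Eif3f*. The medians were -0.02 for both classes. In simulated data, which held changed genes, 50% of 1.3-fold interactions were recovered, and smaller ones were not simulated. The real comparison held no calls, and the FDR cutoff tightens as calls become fewer. Recovery in the real data may thus have been lower than that share. The 95% interval was within 1.3-fold for 16 of 18 ribosomal proteins and 47 of 51 factors.

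Between mice of a group, ribosomal proteins were among the steadier genes on the arrays. The SD of log2 signal within groups had a median of 0.10 over the 18 ribosomal proteins and 0.12 over the 51 factors, beside 0.19 over all tested genes, and 16 of 18 and 42 of 51 were below that. *Eif4h* had 0.03, *Eif3i* 0.06 and *Rpl4* 0.06. The members also had higher signals. In LFD gastrocnemius the mean log2 signal was 9.968 for ribosomal proteins and 9.165 for factors, beside 7.374 over all tested genes. Spread was not compared among genes of like signal, so the part of signal level in this steadiness was not tested. The ribosomal proteins with more spread were *Rps6*, the substrate of S6 kinase, at 0.28, and *Rps4l*, a paralog of *Rps4x* that read 12.1 to 37.0, close to the filter, at 0.42. *Rps6* ran from 81.7 to 170.5 over all arrays, although it is a core protein of every small subunit. Such genes have many processed copies in the genome, and which of them these probes also match was not tested.

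The signals of 2 factors divided with the set of 11 arrays. *Eif4g1*, the most variable member and the scaffold on which the cap complex is built, had an SD of 0.85 and read 321.9 to 421.5 in the 11 arrays and 81.7 to 164.1 in the other 29, with no overlap. *Eif5b*, the GTPase that joins the subunits, read 144.7 to 186.7 in the 11 and 200.1 to 249.0 in the others, again with no overlap. These were 2 of the 69 members, 2.90%, and 204 of all tested genes (3.15%) were likewise without overlap. The log2 difference, 11 arrays minus the other 29, was 1.72 for *Eif4g1*, -0.41 for *Eif5b*, -0.78 for *Eif4ebp2*, 0.33 for *Eif4b* and 0.32 for *Eif3a*. It stayed within -0.25 and 0.20 for the ribosomal proteins, none of which differed by over 1.3-fold. Within the sets of arrays the SD of *Eif4g1* fell to 0.30, whereas that of *Eif4ebp2* was 0.53 and that of *Eif3a* 0.41. These sets were defined from the arrays, so no test is given.

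**Figure D5:**
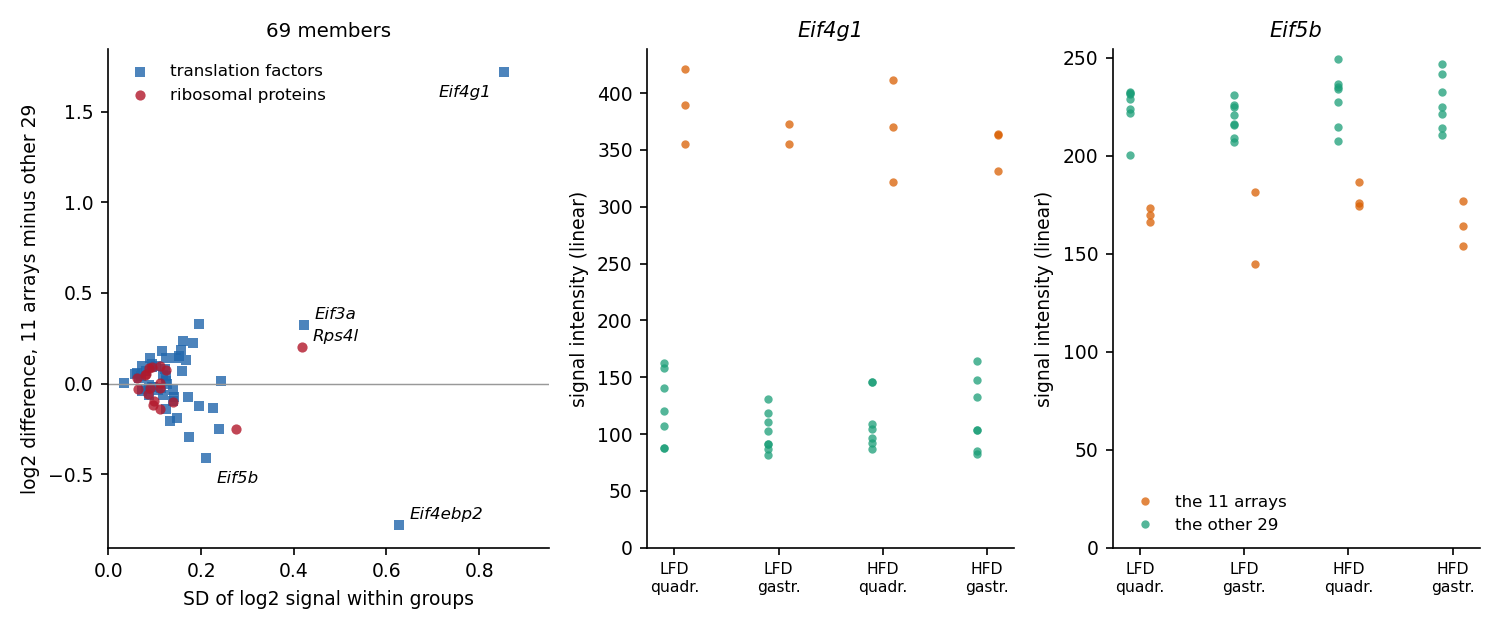
Left, the SD of log2 signal within groups against the log2 difference between the 11 arrays that stood apart and the other 29, for the 69 tested members; middle and right, signal intensity of *Eif4g1* and *Eif5b* by array (linear, from 0). *Eif4g1* is at 321.9 or above in all 11 arrays and at 164.1 or below in all others.

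With the set of 11 arrays as a term in the fit, the members called in LFD mice were *Rps14*, *Rpl13a*, *Rpl8*, *Eif4ebp1*, *Eif6* and *Eef1akmt1*, among 631 genes (9.74%), and in HFD mice the same 4 as above, among 650 (10%). With those arrays left out, *Rps3* alone was called in LFD mice (log2 fold change 0.15, limma adjusted p = 0.0447), among 371 genes (5.73%). In HFD mice it was *Eef1akmt1* alone (0.20, limma adjusted p = 0.0418), among 311 genes (4.8%). The log2 fold changes of *Rps14* were then 0.16 and 0.16, and those of *Eif4ebp1* 0.20 and 0.25.

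The neighbouring pathways were read from lists of genes outside the members. Of 13 tested genes of mTORC1 and its inhibitors, 2 were lower and none higher in the gastrocnemius in each diet, both of them inhibitors, beside 2.53% of all genes called lower in LFD mice and 3.3% in HFD mice. *Deptor*, which binds mTOR, read 451.8 to 642.7 in LFD G (median 547.45) and 593.6 to 834.6 in LFD Q (median 721.25). Its log2 fold changes were -0.34 ± 0.08 and -0.41 ± 0.08 (limma adjusted p = 0.0107 and 0.00192), with G below Q in 9 of 10 LFD and 10 of 10 HFD mice. *Sesn1*, which restrains mTORC1 through amino acid sensing, read 113.4 to 194.8 in LFD G (median 167.05) and 160.2 to 254.2 in LFD Q (median 214.65). Its log2 fold changes were -0.41 ± 0.09 and -0.42 ± 0.11 (limma adjusted p = 0.00889 and 0.0261). Other inhibitors of mTORC1 on the list were not called and did not move together. *Tsc1* had log2 fold changes of 0.12 and 0.10, *Tsc2* -0.03 and -0.01, and *Akt1s1* -0.32 and -0.09. *Sesn3* had -0.29 and 0.26, and *Ddit4* -0.25 and 0.12. Of 5 tested genes of the response to eIF2 phosphorylation, 1 was higher in each diet (beside 2.69% and 3.32% of all genes): *Ddit3*, the transcription factor CHOP, had 0.28 ± 0.08 and 0.49 ± 0.12 (limma adjusted p = 0.0287 and 0.0154). The rest of that list was not called and did not move together. *Atf5* had 0.24 and 0.32, *Atf4* -0.01 and 0.06, and *Ppp1r15a* -0.04 and 0.03. *Chac1* had -0.28 and -0.26, with G below Q in 10 of 10 mice of either diet. In the other lists, none of 14 genes of ribosome assembly, 19 of the cytosolic tRNA synthetases and their scaffold, and 6 of termination and poly(A) binding passed the FDR in either muscle comparison. At an unadjusted p under 0.05 limma gave 2, 2 and 2 of them in LFD mice, and 0, 2 and 2 in HFD mice. *Rack1*, a scaffold on the small subunit, had 0.08 and 0.09 and was not called in either. No gene of these lists was called between the diets, where at an unadjusted p under 0.05 limma gave 2 of 14 assembly genes and 2 of 19 synthetase genes in the gastrocnemius (8.97% of all genes) and 2 of 13 genes of the mTORC1 list in the quadriceps (5.68%). The other lists had 0 in either muscle.

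The remaining 15 members did not reach a mean signal of 20 and were not tested. They were 7 ribosomal proteins (*Rpl17*, *Rpl21*, *Rpl23*, *Rpl31*, *Rpl39l*, *Rps15a* and *Rpsa*) and 8 factors, among them *Eif2s1*, the subunit of eIF2 that stress kinases phosphorylate, and 3 of those 4 kinases (*Eif2ak2*, *Eif2ak3* and *Eif2ak4*). *Eif2ak1*, the kinase that responds to low heme, was measured at 223.0 to 363.6 and had log2 fold changes of -0.09 and -0.06 between the muscles. Since *Rpsa* (3.6 to 6.7 over the 40 arrays), *Rps15a* (3.8 to 6.8) and *Eif2s1* (5.1 to 11.1) are used by every cell, a value below 20 on these arrays does not show that a gene was off. *Rpl39l*, a paralog of a large subunit protein, was also below the filter, at 3.6 to 5.8 in LFD gastrocnemius and 4.8 to 8.8 in LFD quadriceps. The muscle forms could not be set against their ubiquitous partners, because *Rpl3* and *Eef1a1* had no probe set under these symbols. The same held for *Rplp0*, *Rpl39*, *Rpl22l1*, *Rps27* and *Eif2s3x*. *Eif2s3y*, the Y-linked copy of an eIF2 subunit, read 255.0 to 519.3 in these male mice with log2 fold changes of 0.06 and 0.04 between the muscles.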

How the data were processed

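RNA of 40 muscle samples was hybridized to Affymetrix Mouse Genome 430 2.0 arrays. The authors regrouped the probes into a probe set per Entrez gene, normalized the arrays with GC-RMA and quantile normalization (version not given in the sources used here), and deposited linear signal intensities, which sit near 9 at the median of each array (8.8 to 9.4). Of 16539 probe sets 64 controls were left out. RefSeq tables (GRCm38.p6) named 16229 genes, 28 more came from the platform annotation, and 218 stayed unnamed. The number of arrays, not read depth, limits the precision.

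Here log2 intensities of the 6479 genes (39.3%) with a mean over 20 on the 40 arrays entered limma 3.58.1 (R 4.3.3). For the muscles, each fit held the 20 arrays of a diet, and for the diets and the interaction all 40 arrays in 4 groups. Calls needed a Benjamini-Hochberg FDR under 0.05 over all tested genes, with a fold change over 1.3 as the stricter call of the methods. Arrays of a muscle came from separate mice, and a mouse gave both muscles, so its number pairs them. Same-mouse deviations correlated at a median of 0.39 in LFD and -0.07 in HFD mice. The members and gene lists were chosen with earlier results of these data known. Named were the members with the smallest adjusted p per class and comparison, those most and least variable, a fixed set of paralogs, kinases and inhibitors, and up to 2 called genes per neighbouring list. *Eif5b*, *Eif4b*, *Eif3a*, *Rpl15*, the uncalled genes of the eIF2 response list, the uncalled mTORC1 inhibitors and the members below the filter outside these rules were named after their values were seen. Alternatives changed the filter, scaling, variance model, block and mice, and after the data were seen the 11 arrays and the 10 quadriceps arrays with neutrophil signal. Simulated data with 200 changed genes were used to test the fits. The values of 1 ribosomal protein gene are not reported here by name, though it stays in the counts and medians.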

Additional observations from a re-analysis of the deposited data

Results flagged for a closer look

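Of 164 groups of 10 arrays over the 41 genes named by rule, 13 held an array set apart from the rest by Dixon's criterion, which chance alone meets in about 1 group in 20. In LFD gastrocnemius, *Rpl13a* read 398.3 in mouse 148 (others 278.3 to 340.4), *Eif3i* 2464.6 in mouse 156 (2184.2 to 2312.1), *Eif2ak4* 22.2 in mouse 148 (8.4 to 14.9) and *Eif5a2* 4.3 in mouse 160 (2.6 to 3.5). *Eef1a2* was at its lowest there, 7994.3 in mouse 142 (8870.7 to 9710.4). In LFD quadriceps, *Eif4ebp1* read 724.1 in mouse 160 (518.7 to 624.5), *Eif4ebp2* 347.6 in mouse 147 (96.1 to 224.8) and *Eif2ak4* 24.2 in mouse 142 (7.1 to 12.1).

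In HFD gastrocnemius, mouse 157 held the highest *Rps14*, 5249.4 (4004.6 to 4616.4), and the highest *Rpl14*, 55.2 (42.9 to 49.2). In HFD quadriceps, mouse 145 held the highest *Eif4a1*, 944.3 (557.0 to 738.2), and the highest *Ddit3*, 145.4 (60.6 to 90.6), and mouse 157 the highest *Eif4ebp3*, 157.4 (122.7 to 139.4). No explanation of these arrays was tested.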

How the results depend on the processing

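No value reversed, and the medians of both classes and the difference between them stayed within the spread between mice under every alternative run. That margin is wide beside the values. For the ribosomal proteins between the muscles the SD over mice was 0.082 (LFD) and 0.049 (HFD), beside means of 0.087 and 0.069. Staying within it therefore says little about stability. Leaving out each mouse gave medians of 0.07 to 0.11 (LFD) and 0.06 to 0.08 (HFD) for the ribosomal proteins between the muscles. The counts of calls, being few, moved more. For LFD ribosomal proteins (1 called) they were 2 with a mean over 50, with median-centred arrays or with other samples in the fit, 3 with the 11-array term, 6 with array weights or the mouse as a random replicate block, and 0 when adjusted before the filter, at FDR 0.01, at 1.2-fold or without the quadriceps arrays with neutrophil signal. Leaving out a mouse gave 0 to 2. For LFD factors (2 called) they were 4 with array weights or the random block, and 0 with no filter, when adjusted before the filter, without the 11 arrays, without those quadriceps arrays, at FDR 0.01 or at 1.2-fold, and 0 to 3 without a mouse. For HFD ribosomal proteins (1 called) they were 2 with trended variance or array weights, and 0 when adjusted before the filter, with the fixed block, without the 11 arrays, without those quadriceps arrays, at FDR 0.01 or at 1.2-fold, and 0 to 1 without a mouse. For HFD factors (3 called) they were 1 with the fixed block or without the 11 arrays, 0 with no filter, when adjusted before the filter, without those quadriceps arrays, at FDR 0.01 or at 1.2-fold, and 0 to 2 without a mouse. For diet in the gastrocnemius (0 called) array weights gave 1 ribosomal protein, *Rpl14*, and 2 factors, *Eif3f* and *Eif3k*. *Eif3f* alone was called with a mean over 50, with log2(value + 8), with trended variance and with the 11-array term, and 0 to 2 factors without a mouse. Over all genes, array weights called 759 in LFD mice (11.7%), 590 in HFD mice (9.11%) and 172 for diet in the gastrocnemius (2.65%). For that diet comparison the 11-array term called 81 genes (1.25%). With the mouse as a fixed replicate block 694 genes were called in LFD mice (10.7%) and 409 in HFD mice (6.31%), and as a random block 917 (14.2%) and 427 (6.59%). A fixed block could not be fitted for diet, since each mouse had 1 diet. Beyond the blocked values given above, *Rpl22*, *Eif4a1* and *Eif6* passed in LFD mice with the random block, and *Eef1akmt1* in HFD mice missed it (limma adjusted p = 0.0504). Except where the threshold was stricter, the causes of these changes in calls were not tested, also where fewer genes or arrays entered a fit. The alternatives with the 11 arrays and with the neutrophil signal were chosen after seeing the data. Weak signals limit what the 15 members below the filter can show.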
